A study of Mus musculus with 4 samples.

Results

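Interferon-stimulated genes are the genes that cells switch on when interferon reaches its receptors. In this set they are 46 genes fixed by name, of the 33981 genes listed in the count tables, and all 46 were found there by name. A mean count of 10 or more per library was reached by 44 of them, and Oas3 and Tgtp1 stayed below it. The rule uses names and no measured value, although the list was drawn up with earlier results of these data known.

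Type I interferons signal through IFNAR1 and IFNAR2 and the kinases JAK1 and TYK2 to a complex that holds STAT2 and IRF9 and binds a promoter element called the interferon-stimulated response element (ISRE). Interferon gamma signals through its own receptor, and its target genes carry another element, the gamma-activated site (GAS). The proteins made in response detect foreign nucleic acid, block viral translation and release, tag other proteins with ISG15 or mark vacuoles for destruction. In brain they are made mainly by microglia, infiltrating macrophages, astrocytes and endothelium.

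Poly(A) RNA was sequenced from a coronal section of brain with the prefrontal cortex in it. The 24 libraries came from male C57BL/6J mice, 3 to 5 months old, with 6 libraries in each of 4 groups. Subcutaneous osmotic pumps delivered saline vehicle to normotensive (NT) mice and angiotensin II to hypertensive (HT) mice for 28 days, the latter at a rate of 0.28 mg/kg/day. On day 7 a photothrombotic stroke of the prefrontal cortex or sham surgery was carried out, so tissue was taken 21 days after surgery from mice perfused at death. NT + Sham mice therefore carried the pump, the vehicle and the sham operation as well. Each numbered library was treated as 1 mouse. Total counts were 15922919 to 24865998 per library (median 18497216), and levels are given as CPM, counts divided by the scaled library size, or as FPKM, which also divides by gene length, where genes are compared with each other. In whole tissue, fewer cells of a type and less RNA per cell cannot be told apart.

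The promoters of the genes show which of them carry the letters that these factors bind. RefSeq windows on GRCm38.p6, from 250 bases before to 50 bases after the start, were matched by symbol for 35 of the 46 genes. The ISRE was searched as GAAA, 2 bases of any kind and GAAA, and the GAS as TTCNNNGAA, on both strands and in every overlap. At least 1 ISRE stood in the window of 21 of the 35 genes (60.0%), against 3.99% of the 27025 genes with a window. At least 1 GAS stood in 11 of the 35 (31.4%), against 9.55% of all genes. A longer ISRE, the same letters followed by CT, stood in 11 of the 35 genes (31.4%) and in 0.303% of all genes. All 7 interferon-inducible GTPases with a window held an ISRE, and 4 of them a GAS. The 32 ISRE matches began between 222 bases before and 33 bases after the start, with a median of 65 bases before it.

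The 160 bases before the start are shown for 10 genes, 5′ to 3′ on the strand of the gene, with ISRE and GAS letters in capitals. They were picked as pairs of relatives and as the ends of the response: 3 neighbouring genes of the IFIT family, ISG15 itself, a pair of GTPases with both elements side by side, the 3 genes Oas1a, Bst2 and Lgals3bp that were among the most raised after stroke, and Cmpk2, which was not raised. A match describes letters and does not show binding, and a window without a match says only that these letters are not in it.
Ifit1 (chr19:34640729-34640888, plus strand): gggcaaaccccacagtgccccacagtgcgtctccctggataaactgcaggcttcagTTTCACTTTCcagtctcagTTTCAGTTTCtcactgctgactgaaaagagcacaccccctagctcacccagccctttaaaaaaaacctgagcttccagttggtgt
Ifit3 (chr19:34583369-34583528, plus strand): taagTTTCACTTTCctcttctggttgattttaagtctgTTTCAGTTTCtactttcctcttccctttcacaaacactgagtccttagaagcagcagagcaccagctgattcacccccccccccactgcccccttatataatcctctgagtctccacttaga
Ifit2 (chr19:34550534-34550693, plus strand): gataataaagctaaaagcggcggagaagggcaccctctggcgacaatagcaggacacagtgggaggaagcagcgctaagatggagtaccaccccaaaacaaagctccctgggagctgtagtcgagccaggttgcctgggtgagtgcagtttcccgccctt
Isg15 (chr4:156200819-156200978, minus strand): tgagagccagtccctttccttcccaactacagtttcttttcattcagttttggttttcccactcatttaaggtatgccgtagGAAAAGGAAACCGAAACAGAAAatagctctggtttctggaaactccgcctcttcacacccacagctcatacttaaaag
Igtp (chr11:58199396-58199555, plus strand): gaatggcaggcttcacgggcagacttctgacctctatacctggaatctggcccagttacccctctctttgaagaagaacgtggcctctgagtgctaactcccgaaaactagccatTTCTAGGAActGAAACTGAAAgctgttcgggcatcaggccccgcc
Tgtp2 (chr11:49064213-49064372, minus strand): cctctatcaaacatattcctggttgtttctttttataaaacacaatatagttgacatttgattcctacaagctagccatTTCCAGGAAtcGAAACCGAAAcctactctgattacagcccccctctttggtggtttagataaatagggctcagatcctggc
Oas1a (chr5:120907526-120907685, minus strand): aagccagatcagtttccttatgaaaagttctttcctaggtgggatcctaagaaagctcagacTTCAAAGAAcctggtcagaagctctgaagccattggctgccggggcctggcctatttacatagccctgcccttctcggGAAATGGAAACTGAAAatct
Bst2 (chr8:71537473-71537632, minus strand): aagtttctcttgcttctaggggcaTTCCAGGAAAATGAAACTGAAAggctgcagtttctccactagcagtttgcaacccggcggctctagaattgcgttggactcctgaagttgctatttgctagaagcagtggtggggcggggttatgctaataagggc
Lgals3bp (chr11:118401960-118402119, minus strand): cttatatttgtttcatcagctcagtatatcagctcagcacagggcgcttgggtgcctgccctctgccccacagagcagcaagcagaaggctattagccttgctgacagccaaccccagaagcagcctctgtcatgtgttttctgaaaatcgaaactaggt
Cmpk2 (chr12:26469055-26469214, plus strand): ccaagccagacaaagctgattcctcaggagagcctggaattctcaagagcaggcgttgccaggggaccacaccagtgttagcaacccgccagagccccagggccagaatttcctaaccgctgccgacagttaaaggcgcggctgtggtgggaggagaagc

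In Bst2 the GAS overlaps an ISRE, and in Isg15 3 ISRE matches overlap each other. Ifit1 and Ifit3 each held 2 ISRE matches, and the window of Ifit2 shown held no ISRE in its 300 bases and 1 GAS upstream of the letters shown. Lgals3bp and Cmpk2 held neither set of the letters searched in the window of 300 bases, and other forms of these elements were not searched.

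**Figure D1:**
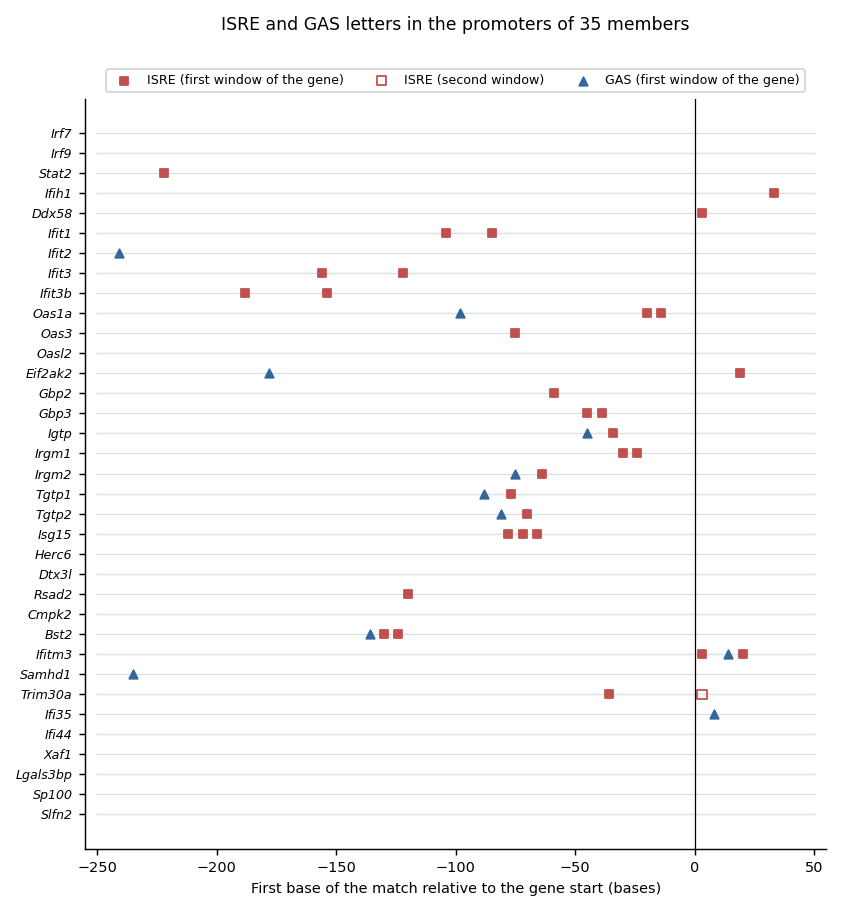
Position of the first base of each ISRE match (squares) and GAS match (triangles) in the promoter windows of the 35 members with a RefSeq entry, in bases from the gene start (vertical line), with open symbols for a second window of the same gene. Of the 32 ISRE matches 24 lie within the 160 bases before the start, the 7 GTPases from Gbp2 to Tgtp2 each carry at least 1, and 11 genes carry no match of either kind.

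The levels of the genes spanned a wide range. Ifitm3, which keeps enveloped viruses from fusing, had the highest mean FPKM over the 24 libraries (46.0), followed by Ifi27 (39.2), a mitochondrial protein, and Lgals3bp (15.7), a secreted glycoprotein that binds galectins. Bst2, or tetherin, which holds budding virus at the cell surface, had 13.3 FPKM and Ifit3 had 8.08. Ifi27l2a, Isg15 and Cmpk2, a mitochondrial nucleotide kinase, had 6.66, 5.81 and 4.59 FPKM. Oas3 lay lowest at 0.0332 FPKM, with a mean of 4.42 counts per library.

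There were 3 libraries that stood apart from their labels. In HT + Stroke mice 1 and 6, Gfap (249 and 231 CPM), the filament of reactive astrocytes, and Gpnmb (15.4 and 18.6 CPM), a gene of lipid-laden phagocytes, lay far below the other 4 mice of the group (920 to 1346 CPM and 78.6 to 352 CPM) and near the NT + Sham mice (146 to 183 CPM and 5.03 to 7.46 CPM). In HT + Sham mouse 6 both were raised, at 550 and 79.2 CPM, against 163 to 242 and 4.23 to 10.9 CPM in the other 5 mice of that group. These libraries were identified by injury genes and not by the interferon-stimulated genes. The main counts and the genes named in the HT comparisons are given with and without them.

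After stroke in normotensive mice the interferon-stimulated genes rose nearly as a whole. Of the 44 genes that passed the filter on low counts, 40 were higher in NT + Stroke than in NT + Sham with an adjusted P under 0.05 (edgeR quasi-likelihood test, two-sided), against 14.4% of all genes tested. Herc6 was lower (11.5% of all genes tested were lower), and Ifit2, Stat2 and Cmpk2 did not pass the test. Oas3 and Tgtp1 were removed by the filter. A filter of 10 counts in every library also removed Ifi44, Mx1, Oas1a, Tgtp2 and Zbp1, which have few counts in sham mice and passed the main filter with the help of stroke mice. The median log2 fold change of the 44 genes was 0.98, beside -0.01 over all genes tested, and the range was -0.51 to 2.42. In 28 of the 44 genes every NT + Stroke mouse lay above every NT + Sham mouse, which held for 7.95% of all genes tested.

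**Figure D2:**
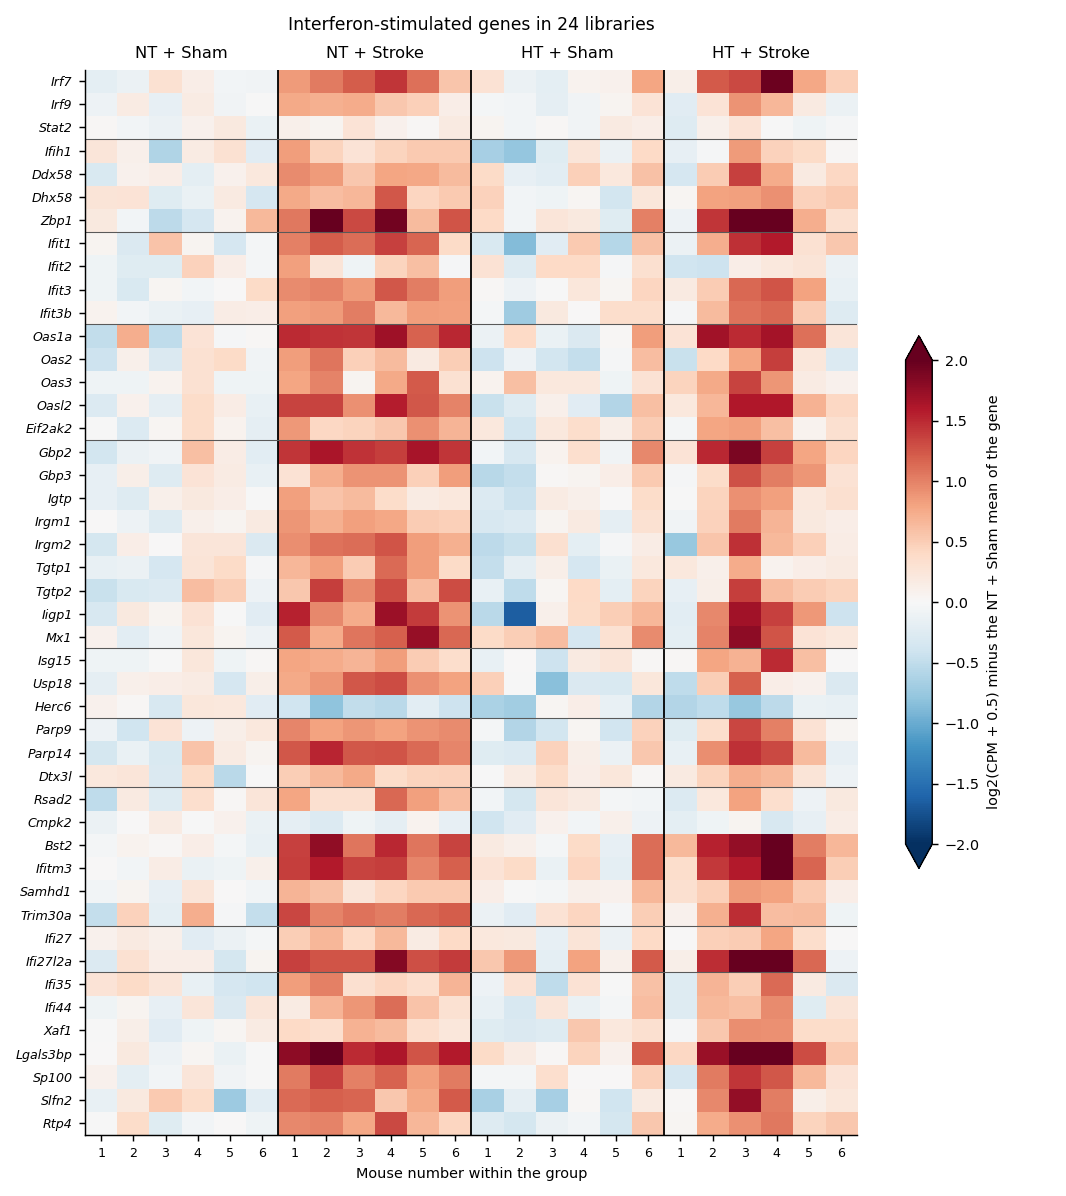
Log2 difference of each of the 46 genes from its NT + Sham mean, on log2(CPM + 0.5), in the 24 libraries (columns, numbered by mouse within the group), with horizontal lines between roles and colours clipped at -2 and 2. The 6 NT + Stroke columns are red across almost all rows, HT + Stroke mice 1 and 6 look like sham mice, and HT + Sham mouse 6 is raised.

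Per mouse, the median log2 difference of the 45 genes with enough counts over all libraries from their NT + Sham means ran from -0.11 to 0.20 among NT + Sham mice and from 0.67 to 1.11 among NT + Stroke mice. Each NT + Stroke mouse had 36 to 40 of the 45 genes above the highest NT + Sham mouse, against 21.0% to 26.2% of all genes. Among the sham mice, 1 was raised a little. NT + Sham mouse 4 had 22 of the 45 genes above the other 5 mice of its group (48.9%, against 31.0% of all genes) and a median difference of 0.20.

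Among the transcription factors that carry the response, Irf7 and Irf9 rose and Stat2 did not pass the test. Irf7, the factor that amplifies the production of interferon alpha, was 3.08 to 4.57 CPM in NT + Sham (median 3.44) and 5.55 to 10.6 CPM in NT + Stroke (median 8.12). Its groups did not overlap, and the log2 fold change was 1.16 ± 0.15 (SE, adjusted P = 2.13e-05). For Irf9 the log2 fold change was 0.60 ± 0.11 (adjusted P = 0.000651), with 5 of 6 stroke mice above every sham mouse. Stat2 was 19.8 to 24.9 CPM in NT + Sham (median 21.6) and 22.2 to 26.5 CPM in NT + Stroke (median 23.3), and 5 of the 6 stroke mice lay inside the sham range. Its log2 fold change was 0.13 ± 0.07 (adjusted P = 0.22). Irf7 overlaps Phrf1 on the other strand and Irf9 overlaps Rnf31 on the same strand, and reads of such pairs may not be separable.

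All 4 sensors of foreign nucleic acid rose, with log2 fold changes of 0.54 to 2.06. They are Ifih1 (MDA5) and Ddx58 (RIG-I), which detect viral RNA, Dhx58 (LGP2), which modulates them, and Zbp1, which detects Z-form nucleic acid and triggers cell death. Zbp1 changed most, from 0.173 to 1.01 CPM in NT + Sham (median 0.475) to 0.998 to 3.36 CPM in NT + Stroke (median 1.86). Only the lowest stroke mouse, number 5, fell below the highest sham mouse, and the log2 fold change was 2.06 ± 0.36 (adjusted P = 0.000372).

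In the IFIT family, which binds viral RNA that lacks host cap marks, 3 of 4 genes rose. Ifit3 was 7.62 to 12.6 CPM in NT + Sham (median 9.36) and 17.3 to 23.1 CPM in NT + Stroke (median 19.1). No stroke mouse reached down to the sham range, and the log2 fold change was 1.02 ± 0.11 (adjusted P = 2.74e-06). Ifit1 and Ifit3b rose by 1.19 ± 0.20 and 0.91 ± 0.11 on the log2 scale. Ifit2, which lies 7112 bases from Ifit3 on chromosome 19, was 6.92 to 11.6 CPM in NT + Sham (median 7.86) and 7.78 to 14.9 CPM in NT + Stroke (median 10.7). The groups overlapped, with 2 of 6 stroke mice above every sham mouse, and its log2 fold change of 0.37 ± 0.16 did not pass the test (adjusted P = 0.11). Ifit3 and Ifit3b are close copies, so their reads may be shared.

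All 4 tested genes of the OAS family and PKR rose. Oas1a, whose product activates RNase L on double-stranded RNA, was 0.289 to 1.36 CPM in NT + Sham (median 0.624) and 2.05 to 3.13 CPM in NT + Stroke (median 2.61). Its groups did not overlap, and the log2 fold change was 1.95 ± 0.28 (adjusted P = 5.91e-05). Oasl2 rose from 3.13 to 5.16 CPM (median 3.80) to 7.78 to 12.6 CPM (median 10.2), again without overlap, by 1.34 ± 0.14 on the log2 scale (adjusted P = 3.11e-06). Eif2ak2, or PKR, which halts translation, and Oas2 rose by 0.77 ± 0.17 and 0.82 ± 0.25. Oas3 was not tested, and its 6 sham mice had 0.161 CPM at most.

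The interferon-inducible GTPases, which coat and disrupt vacuoles or viral complexes, rose in 8 of 8 tested genes, with a median log2 fold change of 1.32. Mx1, which traps viral nucleocapsids, was 0.109 to 0.322 CPM in NT + Sham (median 0.204) and 0.684 to 1.85 CPM in NT + Stroke (median 1.09). Every stroke mouse lay above every sham mouse, and its log2 fold change of 2.42 ± 0.32 (adjusted P = 2.54e-05) was the largest of the 44 genes, on counts that average 13.0 per library. The NT + Sham libraries held 6 counts of Mx1 at most. It therefore passed the filter only through NT + Stroke, which favours a rise and a high rank.

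Gbp2, a guanylate-binding protein, was 1.97 to 4.35 CPM in NT + Sham (median 2.496), with mouse 4 highest, and 7.78 to 9.43 CPM in NT + Stroke (median 8.16). The stroke mice lay close together and all above the sham mice, at a log2 fold change of 1.62 ± 0.16 (adjusted P = 1.12e-06). Iigp1 rose from 0.907 to 1.67 CPM (median 1.30) to 2.46 to 5.29 CPM (median 3.53), by 1.54 ± 0.22 on the log2 scale (adjusted P = 4.94e-05), and its groups did not overlap. Tgtp2 was 0.151 to 0.859 CPM in NT + Sham (median 0.276) and 0.784 to 1.80 CPM in NT + Stroke (median 1.45). There 4 of 6 stroke mice lay above every sham mouse, and the log2 fold change was 1.65 ± 0.38 (adjusted P = 0.00326). Gbp3, Igtp, Irgm1 and Irgm2 rose by 0.51 to 1.11. Igtp overlaps Irgm2 on the same strand, and Tgtp1 and Tgtp2 are near copies, so these values are uncertain as to which gene the reads came from.

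The ISG15 system held both directions. Isg15, the ubiquitin-like tag, was 2.97 to 3.81 CPM in NT + Sham (median 3.09) and 4.21 to 6.10 CPM in NT + Stroke (median 5.54). The groups did not overlap, and the log2 fold change was 0.74 ± 0.13 (adjusted P = 0.00034). Usp18, the protease that removes ISG15 and dampens receptor signalling, rose from 1.03 to 1.67 CPM (median 1.59) to 2.77 to 4.29 CPM (median 3.10), without overlap, by 1.22 ± 0.18 (adjusted P = 6.58e-05). Herc6, the ligase that attaches ISG15 in mice, was 5.89 to 8.81 CPM in NT + Sham (median 7.79) and 4.04 to 6.39 CPM in NT + Stroke (median 5.33). It fell by 0.51 on the log2 scale (SE 0.13, adjusted P = 0.00683), and the groups overlapped.

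The 3 genes of the ADP-ribosylation complex rose together. Parp14 was 1.61 to 3.49 CPM in NT + Sham (median 2.13) and 4.80 to 7.22 CPM in NT + Stroke (median 5.86). Its groups did not overlap, and it rose by 1.37 ± 0.18 on the log2 scale (adjusted P = 1.66e-05). Parp9 rose by 0.999 ± 0.14 and its partner Dtx3l, a ubiquitin ligase, by 0.57 ± 0.16. Parp9 and Dtx3l overlap on opposite strands.

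Of the 6 antiviral effectors, 5 rose. Ifitm3 was 15.03 to 18.3 CPM in NT + Sham (median 16.3) and 33.0 to 50.7 CPM in NT + Stroke (median 43.2). All stroke mice lay above all sham mice, and the log2 fold change of 1.35 ± 0.09 had the smallest adjusted P of the set (4.70e-08). Bst2 rose from 5.28 to 6.55 CPM (median 5.88) to 12.9 to 21.3 CPM (median 15.97), also without overlap, by 1.45 ± 0.12 (adjusted P = 1.90e-07). Samhd1, which removes nucleotides, Trim30a, a ligase of the TRIM family, and Rsad2 (viperin), which makes a chain-terminating nucleotide, rose by 0.52 ± 0.09, 1.29 ± 0.23 and 0.92 ± 0.25. Cmpk2, the neighbour of Rsad2 on chromosome 12, was 18.1 to 22.1 CPM in NT + Sham (median 19.8) and 16.3 to 20.9 CPM in NT + Stroke (median 17.5). Its stroke mice lay within or below the sham range, and its log2 fold change of -0.13 ± 0.08 did not pass the test (adjusted P = 0.24).

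Both IFI27 proteins and all 7 of the other genes rose. Ifi27 was 40.1 to 53.5 CPM in NT + Sham (median 47.8) and 52.8 to 74.8 CPM in NT + Stroke (median 64.2), with 1 stroke mouse inside the sham range and a log2 fold change of 0.47 ± 0.09 (adjusted P = 0.000468). Ifi27l2a, the adjacent gene, rose from 0.889 to 1.69 CPM (median 1.39) to 3.72 to 5.82 CPM (median 3.96), without overlap, by 1.72 ± 0.19 (adjusted P = 3.14e-06). Lgals3bp rose from 18.4 to 23.1 CPM (median 20.3) to 48.8 to 85.9 CPM (median 62.3), again without overlap, by 1.68 ± 0.11 (adjusted P = 7.83e-08). Slfn2, which keeps T cells and monocytes quiescent, was 1.31 to 3.81 CPM in NT + Sham (median 2.58) and 3.85 to 6.49 CPM in NT + Stroke (median 6.18), a log2 fold change of 1.104 ± 0.21 (adjusted P = 0.00086). The stroke mice all lay above the sham mice, though the lowest of them only just. The others, Ifi35, Ifi44, Xaf1, Sp100 and Rtp4, rose by 0.48 to 1.18.

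**Figure D3:**
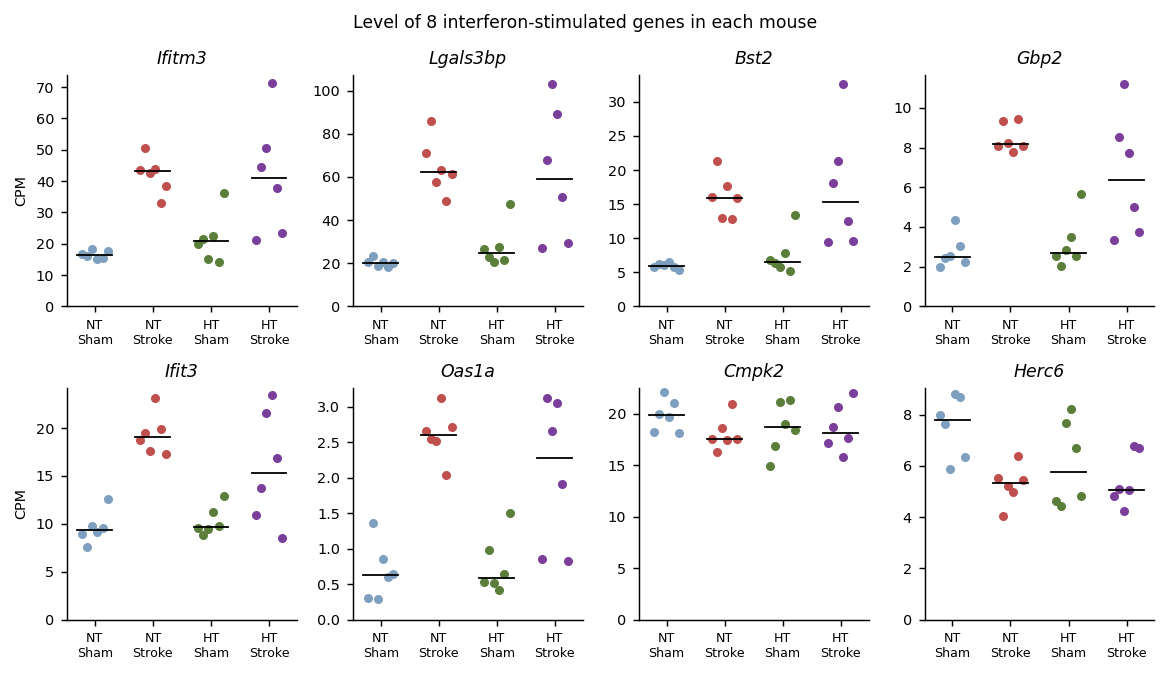
CPM of 8 interferon-stimulated genes in each mouse (points, 6 per group) with the group median (bars), on linear axes that start at 0. Ifitm3, Lgals3bp, Bst2, Gbp2, Ifit3 and Oas1a are separated between NT + Sham and NT + Stroke, HT + Stroke mice are spread more widely than NT + Stroke mice in these 6 genes, and Cmpk2 and Herc6 are not raised.

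Genes with and without these promoter letters overlapped in their change. Of the 29 genes with a promoter window that rose after stroke in NT mice, 20 held an ISRE or a GAS and 9 held neither. The 19 tested genes with an ISRE had log2 fold changes of 0.13 to 1.95 (median 0.92), and the 14 without one of -0.51 to 1.68 (median 0.63). For the GAS the medians were 0.94 in 10 genes with it and 0.91 in 23 without, and for either element 0.87 in 22 genes with it and 1.07 in 11 without. Stat2, which did not pass the test, held an ISRE. Irf7, Oasl2, Ifi44, Lgals3bp, Sp100 and Slfn2 rose by more than 1 on the log2 scale and held neither set of letters.

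The rest of the interferon pathway was examined through 60 further genes, of which 42 were found by name and 34 were tested in NT mice. There were 24 that rose and 1 that fell (14.4% and 11.5% of all genes tested did), with a median log2 fold change of 0.54, beside -0.01 over all genes. Of the receptors, Ifngr1 and Il10rb rose by 0.83 ± 0.08 and 0.82 ± 0.13 and Ifnar2 by 0.50 ± 0.10, and Ifnar1 and Ifngr2 did not pass the test. Stat3 and Tyk2 rose by 0.54 ± 0.07 and 0.29 ± 0.09, and Jak1 fell by 0.17 (SE 0.06, adjusted P = 0.0322). Irf8, a factor of microglia and macrophages, rose by 1.65 ± 0.14, Irf5 by 1.204 ± 0.17 and Irf1 by 0.80 ± 0.11.

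Upstream of interferon, Ifi204, a sensor of DNA, rose from 0.101 to 0.374 CPM to 1.28 to 2.49 CPM (log2 fold change 3.23 ± 0.32, adjusted P = 1.32e-06). Its sham levels were below the filter on low counts. Ifi204 therefore passed only through NT + Stroke, which favours a rise and a high rank. Ikbke, Tlr7 and Unc93b1 rose by 1.68 ± 0.24, 1.54 ± 0.18 and 1.34 ± 0.11, and Tmem173 (STING) by 0.89 ± 0.12. Of 6 genes listed as negative regulators, Nlrc5, Ptpn6, Socs3 and Socs1 rose by 1.84 ± 0.28, 1.48 ± 0.16, 0.67 ± 0.10 and 0.55 ± 0.19. The other 2 did not pass the test. The interferons themselves were close to absent. Of 21 interferon genes listed, 6 were found by name, with 28 counts in total over the 24 libraries and at most 3 counts of a gene in a library, so none could be tested at this depth.

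Markers of several cell types moved with these genes. The summed level of 8 microglial markers was 304 to 335 CPM in NT + Sham and 481 to 755 CPM in NT + Stroke, and that of 8 macrophage and monocyte markers was 11.3 to 16.3 and 96.8 to 462 CPM. The macrophage and monocyte list includes Gpnmb, which made up most of the lowest and highest NT + Stroke sums (78.8 and 374 CPM, mice 4 and 2). Astrocyte markers (614 to 745 and 1241 to 1652 CPM) and fibroblast markers (60.4 to 75.8 and 179 to 658 CPM) were higher too. The astrocyte list includes Gfap, at 146 to 183 and 596 to 1059 CPM, which made up most of the rise of that sum. Log2 fold changes of the 5 astrocyte markers ran from 0.21 to 2.39, with a median of 0.33. Cortical neuron markers were lower (6111 to 6377 and 4217 to 5367 CPM). Endothelial markers were 131 to 150.0 CPM in NT + Sham and 151 to 185 CPM in NT + Stroke, and 3 of 5 rose. Neutrophil markers were 0.655 to 1.92 and 2.25 to 38.3 CPM, and both that could be tested rose. The content of the sections differed as well, as olfactory bulb markers summed to 46.2 to 111 CPM in NT + Sham and 75.4 to 294 CPM in NT + Stroke, and 2 of 4 rose. None of these markers was at 0 in all libraries of these 2 groups. Their part in the result was not tested. T cell markers summed to 5.32 to 13.7 CPM in NT + Sham and 8.82 to 29.7 CPM in NT + Stroke, and 2 of the 4 tested rose. The 6 markers of plasmacytoid dendritic cells summed to 187 to 213 and 176 to 214 CPM. Of the 3 tested, 1 rose, which was Bst2, itself a member. Siglech, a marker that these cells share with microglia, was 11.2 to 13.9 CPM in NT + Sham and 10.8 to 16.1 CPM in NT + Stroke.

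In hypertensive mice the same comparison gave smaller differences and a wider spread. Of 43 genes tested, 0 passed an adjusted P under 0.05 between HT + Stroke and HT + Sham (edgeR, smallest adjusted P = 0.0794), where 0.544% of all genes were higher. An unadjusted P under 0.05 was reached by 26 of the 43, all higher in stroke, against 10.5% of all genes. DESeq2 on the same libraries called 10 genes, all higher, and 4.88% of all genes in either direction. The median log2 fold change was 0.69 (0.00 over all genes), 40 of 43 values were above 0 (50.1% of all genes), and in 0 of the 43 genes did the groups separate (0.639% of all genes were separated upward). Mx1, Tgtp1 and Oas3 were removed by the filter in this comparison.

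The spread came from mice of both groups. HT + Stroke mice 2, 3, 4 and 5 had 36, 42, 36 and 28 of the 45 genes above every NT + Sham mouse. These were 62.2% to 93.3% of the 45, against 21.3% to 31.5% of all genes. HT + Stroke mouse 1 had 4 (8.89%, against 15.3% of all genes) and mouse 6 had 13 (28.9%, against 16.9%). HT + Sham mouse 6 had 31 (68.9%, against 23.0%). The other 5 mice of its group had 4 to 9, against 14.3% to 19.7% of all genes. Of these, mice 1 and 4 lay above their share of all genes and mice 2, 3 and 5 below it. The median coefficient of variation of the 45 genes was 19.95% in NT + Sham, 17.4% in NT + Stroke, 30.15% in HT + Sham and 44.97% in HT + Stroke. Without the 3 libraries it was 23.4% in HT + Sham and 29.8% in HT + Stroke. HT + Stroke mouse 3 was the highest of its group for 27 of the 46 genes and mouse 4 for 15, and mouse 1 was the lowest for 30.

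Without the 3 libraries, 29 of 44 genes rose after stroke in hypertensive mice (edgeR, 5 sham and 4 stroke mice), against 6.81% of all genes tested, and the median log2 fold change was 1.05. At least 1 gene rose in every role, and 5 of the 8 GTPases tested did. Leaving out HT + Stroke mouse 1 alone gave 8 genes, mouse 6 alone 3 genes, HT + Sham mouse 6 alone 2 genes and any other single mouse 0. The share of all genes called in these fits is not given here, so the counts do not show a change particular to the members. The 3 libraries were chosen after the data were seen, and the genes that identified them change with injury, as the interferon-stimulated genes do.

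Zbp1 had the largest log2 fold change in this comparison, with 0.321 to 1.45 CPM in HT + Sham (median 0.622) and 0.399 to 3.96 CPM in HT + Stroke (median 1.60). The groups overlapped, with 3 of 6 stroke mice above every sham mouse, and the values were 1.52 ± 0.53 with all libraries (adjusted P = 0.16) and 2.31 ± 0.39 without the 3 libraries (adjusted P = 0.0019). Oas1a was 0.423 to 1.50 CPM in HT + Sham (median 0.588) and 0.830 to 3.12 CPM in HT + Stroke (median 2.28). Mice 1 and 6 were the stroke mice inside the sham range. Its log2 fold change was 1.43 ± 0.39 (adjusted P = 0.0907), and 2.10 ± 0.28 without the 3 libraries (adjusted P = 0.00042).

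Slfn2, with 1.39 to 2.91 CPM in HT + Sham (median 1.96) and 2.56 to 9.69 CPM in HT + Stroke (median 4.17), differed by 1.26 ± 0.32 (adjusted P = 0.0794), and by 1.66 ± 0.31 without the 3 libraries (adjusted P = 0.00388). Bst2 was 5.25 to 13.4 CPM in HT + Sham (median 6.56) and 9.51 to 32.6 CPM in HT + Stroke (median 15.3), and all 6 stroke mice lay above 5 of the 6 sham mice, mouse 6 being the exception. It differed by 1.199 ± 0.34 (adjusted P = 0.11), and by 1.73 ± 0.23 without the 3 libraries (adjusted P = 0.000368). Oasl2, with 2.41 to 6.12 CPM in HT + Sham (median 3.21) and 4.56 to 12.8 CPM in HT + Stroke (median 6.53), differed by 1.16 ± 0.30 (adjusted P = 0.0794), and by 1.62 ± 0.25 without the 3 libraries (adjusted P = 0.000906).

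The 4 genes at the lower end in NT mice had overlapping groups in HT mice, as all members did. Herc6 was 4.44 to 8.22 CPM in HT + Sham (median 5.75) and 4.23 to 6.79 CPM in HT + Stroke (median 5.08), a log2 fold change of -0.15 ± 0.18 (adjusted P = 0.74) and -0.26 without the 3 libraries. Cmpk2 was 14.9 to 21.3 CPM in HT + Sham (median 18.7) and 15.8 to 22.03 CPM in HT + Stroke (median 18.1), with 0.01 ± 0.10 (adjusted P = 0.96) and -0.03 without the 3 libraries. Stat2 was 20.8 to 24.7 CPM in HT + Sham (median 22.5) and 18.1 to 26.3 CPM in HT + Stroke (median 21.5), with -0.03 ± 0.09 (adjusted P = 0.91) and 0.05 without the 3 libraries. Ifit2 was 6.79 to 11.1 CPM in HT + Sham (median 10.3) and 6.07 to 9.96 CPM in HT + Stroke (median 8.34), with -0.24 ± 0.16 (adjusted P = 0.48) and -0.11 without the 3 libraries. The stroke mice of Ifit2 and Herc6 included none above the highest sham mouse.

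**Figure D4:**
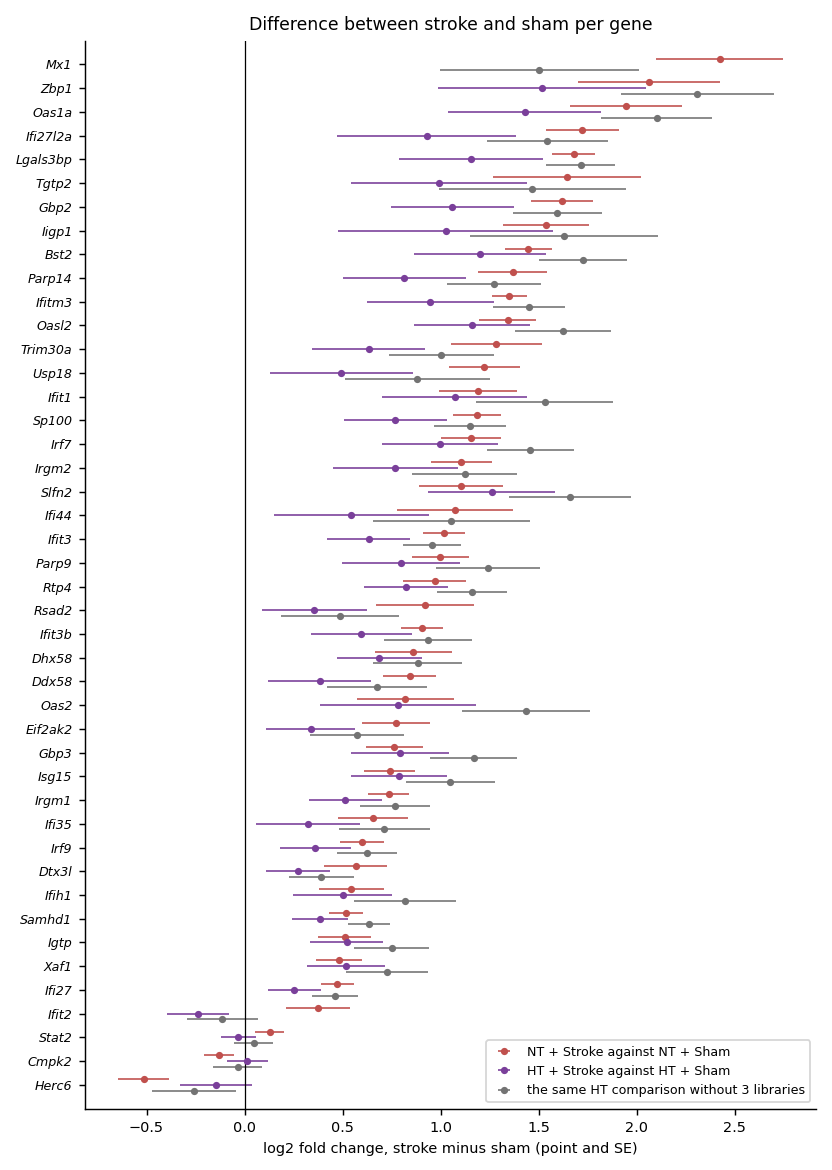
Log2 fold change between stroke and sham (points) with its SE (bars) for the 44 genes tested in NT mice, in NT mice, in HT mice and in HT mice without 3 libraries that went against their labels. The HT values lie below the NT values for most genes with all libraries and on both sides of them without the 3 libraries, and Ifit2, Stat2, Cmpk2 and Herc6 lie at the bottom in all 3.

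Some marker sums moved with the spread among HT mice, and others did not. In HT + Sham mouse 6 the summed macrophage and monocyte markers were 109 CPM and the microglial markers 467 CPM, the highest of its group (lowest 11.4 and 318 CPM). In HT + Stroke mouse 1 the macrophage and monocyte sum was 22.9 CPM, the lowest of its group, and mouse 3 had the highest (467 CPM). Gpnmb belongs to this list and made up 79.2 CPM of the sum in HT + Sham mouse 6. It made up 15.4 and 352 CPM in HT + Stroke mice 1 and 3, so these sums largely restate Gpnmb. T cell markers went another way. They summed to 4.61 to 16.7 CPM in HT + Sham, with mouse 6 lowest. In HT + Stroke they summed to 12.7 to 35.4 CPM, with mouse 5 lowest and mouse 2 highest. The content of the sections also differed, as striatal markers summed to 154 to 674 CPM in HT + Sham, with mouse 6 lowest, and to 529 to 1721 CPM in HT + Stroke. Olfactory bulb markers summed to 82.9 to 355 CPM in HT + Sham, with mouse 6 highest, and to 23.1 to 225 CPM in HT + Stroke. Their part in the result was not tested.

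The genes followed the injury gene Gpnmb across libraries, with exceptions. Libraries with Gpnmb at 18.6 CPM or less had a median difference of the 45 genes of -0.19 to 0.20, and those with 136 CPM or more of 0.64 to 1.14. In between, 3 libraries had nearly the same Gpnmb, 78.6 CPM in HT + Stroke mouse 5, 78.8 CPM in NT + Stroke mouse 4 and 79.2 CPM in HT + Sham mouse 6. Their median differences were 0.38, 1.11 and 0.48. NT + Stroke mouse 4 was thus the highest of its group in interferon-stimulated genes and the lowest in Gpnmb. It was also the lowest of its group in the macrophage and monocyte sum (96.8 CPM). That sum includes Gpnmb (78.8 CPM), so it largely restates Gpnmb.

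**Figure D5:**
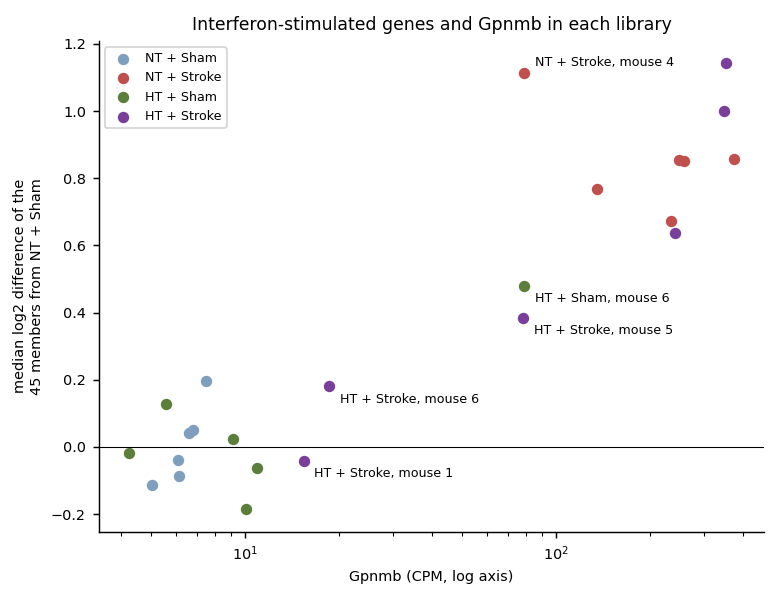
Median log2 difference of the 45 genes from their NT + Sham means against Gpnmb in CPM (log axis), 1 point per library and 1 colour per group. HT + Stroke mice 1 and 6 lie near the sham mice, and 3 libraries with about 79 CPM of Gpnmb differ in the genes, with NT + Stroke mouse 4 highest at 1.11.

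Hypertension alone gave no detected change in these genes. Between HT + Sham and NT + Sham 41 genes were tested and 0 passed an adjusted P under 0.05 with edgeR or with DESeq2. The share of all genes that passed with DESeq2 is not given here, and with edgeR it was 0%. An unadjusted P under 0.05 was reached by 2 genes, both higher in HT + Sham, against 4.96% of all genes in that direction. The median log2 fold change was 0.09, and -0.02 without HT + Sham mouse 6. NT + Sham mice also served as controls for NT + Stroke, so the comparisons are not independent.

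Ifi27l2a had the smallest P, with 1.05 to 3.66 CPM in HT + Sham (median 2.34) and 0.889 to 1.69 CPM in NT + Sham (median 1.39). There 4 of 6 HT + Sham mice lay above every NT + Sham mouse, and the log2 fold change was 0.80 ± 0.28 (adjusted P = 0.47), or 0.60 without mouse 6. Lgals3bp was 20.4 to 47.4 CPM in HT + Sham (median 24.7), with a log2 fold change of 0.45 ± 0.18 (adjusted P = 0.53) that was 0.23 without mouse 6. Ifitm3 was 14.3 to 36.2 CPM in HT + Sham (median 20.8), with 0.39 ± 0.18 (adjusted P = 0.63) that was 0.17 without mouse 6. Mouse 6 was the highest HT + Sham mouse for all 3 genes.

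Between stroke mice, 45 genes were tested and 0 differed between HT + Stroke and NT + Stroke with edgeR or with DESeq2. The share of all genes that differed with DESeq2 is not given here, and with edgeR it was 0%. An unadjusted P under 0.05 was reached by 5 genes, all lower in HT + Stroke, against 3.89% of all genes in that direction. The median log2 fold change was -0.23, and 10 of 45 values were above 0, against 47.6% of all genes. Without HT + Stroke mice 1 and 6 the median was -0.00, 22 of 45 values were above 0 and 1 gene reached an unadjusted P under 0.05 (4.57% of all genes).

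Usp18 had the smallest P here, with 0.854 to 3.92 CPM in HT + Stroke (median 1.59) and 2.77 to 4.29 CPM in NT + Stroke (median 3.10). Mouse 3 was the only HT + Stroke mouse within the NT + Stroke range, and the log2 fold change was -0.83 ± 0.29 (adjusted P = 0.65), or -0.53 without mice 1 and 6. Tgtp1 was 0.322 to 0.811 CPM in HT + Stroke (median 0.368) and 0.511 to 1.203 CPM in NT + Stroke (median 0.801), with -0.86 ± 0.31 (adjusted P = 0.65), or -0.79 without mice 1 and 6, on a mean of 8.67 counts per library. The filter had removed Tgtp1 from both comparisons of stroke with sham. It passed here mainly through NT + Stroke, where it is higher, which favours its place among the genes with an unadjusted P under 0.05. For Ifit2 the log2 fold change was -0.42 ± 0.18 (adjusted P = 0.65), or -0.32 without mice 1 and 6, and its groups overlapped.

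HT + Stroke mice were also set against NT + Sham mice, which differ from them in both treatments. Of 43 genes tested, 20 were higher (8.38% of all genes) and Herc6 was lower (6.37% of all genes), at a median log2 fold change of 0.68. Without HT + Stroke mice 1 and 6, 33 were higher and 1 lower (12.2% and 8.49% of all genes), at a median of 0.94. Bst2, Ifitm3 and Lgals3bp were the 3 genes without overlap between the 2 groups (2.55% of all genes), with log2 fold changes of 1.56 ± 0.27, 1.34 ± 0.26 and 1.61 ± 0.32, or 1.84, 1.63 and 1.95 without mice 1 and 6. The count of 21 genes fell to between 11 and 15 when any single NT + Sham mouse was left out. Leaving out HT + Stroke mouse 2, 3, 4 or 5 gave 11, 14, 10 or 17 genes, and leaving out mouse 1 or 6 gave 29 or 25. The share of all genes called in these fits is not given here.

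Whether stroke acted differently in hypertensive mice was tested by the interaction, the stroke difference in HT mice minus that in NT mice. Of 45 genes, 0 passed an adjusted P under 0.05 with edgeR or with DESeq2. The share of all genes that passed with DESeq2 is not given here, and with edgeR it was 0%. With edgeR 2 of the 45 reached an unadjusted P under 0.05, both negative, against 5.88% of all genes in that direction. The median was -0.32 and 7 of 45 values were above 0, against 50.6% of all genes. Without the 3 libraries the median was 0.03, 27 of 45 values were above 0 and 0 reached an unadjusted P under 0.05 (3.83% of all genes).

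Ifit2 had the smallest P of the interaction, at -0.61 ± 0.24 (adjusted P = 0.39), or -0.48 without the 3 libraries. Mx1 followed with -1.62 ± 0.69 (adjusted P = 0.43), or -0.92 without the 3 libraries. It was 0.0604 to 0.852 CPM in HT + Sham (median 0.455), above the NT + Sham range in 5 of 6 mice, and 0.114 to 1.94 CPM in HT + Stroke (median 0.630), within few counts per library. Mx1 was highest on average in NT + Stroke, the group that chiefly brought it past the filter, which favours a negative value. Usp18 was at -0.73 ± 0.41 (adjusted P = 0.54), or -0.34 without the 3 libraries. The SE of the 45 interaction values was 0.11 to 0.69 on the log2 scale.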

How the data were processed

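Poly(A) RNA of 24 libraries was sequenced, 6 in each of 4 groups, and the groups were taken from the labels of the deposited tables. The authors counted reads per gene without normalization, and the deposited files give these raw counts together with FPKM, which the authors computed from the counts, gene length and depth. The submitters' processing notes name featureCounts 1.5.0-p3 and DESeq2 1.20.0, while the methods of the study name another DESeq release, and the aligner is not given in the sources used here. Whether counting used strand is not stated. Each of the 4 tables held 2 groups, and shared libraries were identical between tables. The 48 normalized count columns and the authors' own fold changes and p-values were not used. A total of 2947 genes not listed in the HT + Sham table were given a count of 0 there, and 22 gene names had more than 1 identifier.

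The libraries carry numbers from 1 to 6 in each group and each was treated as 1 mouse. Nothing else says that they came from separate animals, so P values measure the spread between these libraries. Raw counts were tested with the quasi-likelihood test of edgeR 4.0.16 (R 4.3.3, TMM scaling, filterByExpr with a minimum count of 10 and a minimum total of 15), fitted on all genes of the 2 groups compared, or of all 4 groups for the interaction. P values were two-sided, adjusted by Benjamini-Hochberg over every gene in the fit, and 0.05 was the threshold. Fold changes are those returned by the edgeR fit at its default setting. Each SE is the absolute log2 fold change divided by the square root of the F statistic of the test. A prior count of 2 was used only for the log CPM behind the correlations of same-numbered libraries. Alternatives were DESeq2 1.42.0, limma 3.58.1 on log2(FPKM + 1) and log2(FPKM + 0.1), other filters and scalings, 1 fit of all groups, a block on the library number, and leaving out each library. Leaving out HT + Sham 6, HT + Stroke 1 and HT + Stroke 6 together was chosen after seeing the data.

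The members, the gene lists and the roles were chosen with earlier results of these data known. Genes named with full values were the 8 with the highest mean FPKM, the 10 that changed most upward and the 3 at the lower end after stroke in NT mice (by log2 fold change), the 5 highest such values after stroke in HT mice, and the 3 with the smallest P in HT + Sham against NT + Sham, HT + Stroke against NT + Stroke and the interaction. Irf7, Oas3 and the others were named as examples of their role after their values were seen. Promoter sequences are from RefSeq (GRCm38.p6). Depth was 15922919 to 24865998 counts per library, and genes with few counts have the widest error. A withheld item is not reported here.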

Additional observations from a re-analysis of the deposited data

Results flagged for a closer look

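In 22 genes and 4 groups, 88 groups of 6 mice were examined for a single mouse far from the other 5 (Dixon's criterion, 0.625 for 6 samples), and 5 stood out. Chance gives about 1 in 20 such groups. In HT + Sham mouse 6, Bst2 was 13.39 CPM against 5.247 to 7.854 CPM in the other 5 mice, and Lgals3bp was 47.42 CPM against 20.44 to 27.55 CPM. This is the sham library in which the injury genes Gfap and Gpnmb were also raised. In NT + Stroke mouse 4, Ifi27l2a was 5.815 CPM against 3.724 to 4.168 CPM. In NT + Sham mouse 4, Isg15 was 3.812 CPM against 2.974 to 3.256 CPM. In HT + Stroke mouse 3, Tgtp1 was 0.8108 CPM against 0.3221 to 0.3986 CPM, on few counts.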

How the results depend on the processing

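The count of genes called after stroke in NT mice was 41 and stayed within 36 to 43 under every alternative run, with 40 to 43 when 1 library was left out. After stroke in HT mice the count was 0, against 10 with DESeq2, 17 with all 4 groups in 1 fit, 26 at an unadjusted P under 0.05 and 29 without the 3 libraries (0.645% of all genes were called in either direction, against 4.88%, 6.39%, 17.0% and 8.47%), and leaving out 1 library gave 0 to 8. Between HT + Stroke and NT + Sham the count was 21, against 11 with limma on log2(FPKM + 1), 12 on log2(FPKM + 0.1) and 34 without HT + Stroke mice 1 and 6, and leaving out 1 library gave 10 to 29. The cause of these differences was not tested, apart from the libraries that were left out. For most other counts in this section the share of all genes is not given, so they cannot be read as particular to the members. HT + Sham against NT + Sham, HT + Stroke against NT + Stroke and the interaction gave 0 at an adjusted P under 0.05 under each alternative run. Signs near 0 turned for Cmpk2 in HT mice (0.01, from -0.052 to 0.054 with 1 library left out and -0.035 without the 3 libraries) and for Stat2 (-0.03, from -0.094 to 0.0077 with 1 library left out and 0.046 without the 3 libraries).

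Libraries with the same number in a stroke and a sham group, or in an NT and an HT group, did not all deviate together. Their correlations were -0.379 to 0.261. Whether they share more than a number cannot be told from these values, and the labels give no batch or pairing. With the library number as a replicate block the counts were 42 after stroke in NT mice, 0 in HT mice and 10 between HT + Stroke and NT + Sham. Depth limits Oas3, Tgtp1, Mx1 and the interferons most.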
